A study of Mus musculus with 27 samples.

Results

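The nucleotide excision repair genes described here are 41 genes taken by symbol from a count table of 37095 genes: factors that find UV damage in DNA, the subunits of the TFIIH complex, the incision nucleases, and the polymerases, clamp loader and ligases that refill the gap. Levels did not enter the choice. All 41 had counts in every library (from 16 to 7512) and passed the filter on low counts in brain, meninges and skull. The study sequenced poly(A) RNA from mouse brain, meninges and skullcap, 3 libraries in each of 9 groups. In the treated groups, UVB light (311 nm, 2 mW) was shone on the interparietal bone, the rear plate of the skull roof, and tissue was taken 0.5 h or 24 h later. The control groups are labelled as not treated with UVB, while the series' design text speaks of light given away from the head, so what the controls received is not settled by the sources used here. No strain, age, sex, exposure time or hour of collection is given in the sources used here. The labels do not say that libraries of a group came from separate mice, so p-values measure the spread between these libraries, which may be technical.

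UVB joins neighbouring pyrimidines in DNA into bulky lesions, and nucleotide excision repair is the route by which mammalian cells cut them out. Damage is found across the genome by XPC with its partners, helped by the DDB1-DDB2 ubiquitin ligase, or at stalled RNA polymerase by the Cockayne syndrome proteins. TFIIH then opens the helix, XPA and the single-strand binding protein RPA check and hold the bubble, a nuclease cuts on either side of the lesion, and a polymerase and a ligase restore the strand. The gap-filling genes also serve DNA replication in dividing cells.

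Promoter windows are printed for some of the members whose mRNA differed from control at 24 h. They run from 130 bases before to 30 bases after the RefSeq start on GRCm38.p6. They lie at chr14:32513391-32513550 for Ercc6 (plus strand), chr13:100730913-100731072 for Cdk7 (minus strand), chr11:75348354-75348513 for Rpa1 (minus strand), chr11:82780979-82781138 for Lig3 (plus strand), chr7:100121473-100121632 for Pold3 (minus strand), chr4:55349912-55350071 for Rad23b (plus strand) and chr4:46196282-46196441 for Xpa (minus strand). Capitals mark an E-box in the first 4 and an E2F motif in Pold3. Rad23b and Xpa, the recognition gene that rose and the gene that fell in skull, hold no searched motif and are all in lower case. The same windows of the called members Gtf2h3, Rfc5, Pold2, Rfc1, Ercc4 and Uvssa hold no searched motif either and are not printed. The E-box of Rfc1 lies further up, at -236. The printed windows are therefore not a fair sample of the called members. No GENCODE transcript of Rpa1 or Pold3 begins at or close to the RefSeq start used here.

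Ercc6: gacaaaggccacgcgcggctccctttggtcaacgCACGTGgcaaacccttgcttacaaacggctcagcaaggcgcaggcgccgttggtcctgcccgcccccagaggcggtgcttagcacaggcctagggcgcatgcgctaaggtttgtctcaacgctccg
Cdk7: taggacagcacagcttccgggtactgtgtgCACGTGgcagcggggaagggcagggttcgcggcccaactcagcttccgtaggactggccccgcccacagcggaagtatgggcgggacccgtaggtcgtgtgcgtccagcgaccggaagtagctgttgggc
Rpa1: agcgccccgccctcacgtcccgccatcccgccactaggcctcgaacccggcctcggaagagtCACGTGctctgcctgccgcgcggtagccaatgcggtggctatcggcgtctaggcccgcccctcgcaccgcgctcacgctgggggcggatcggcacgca
Lig3: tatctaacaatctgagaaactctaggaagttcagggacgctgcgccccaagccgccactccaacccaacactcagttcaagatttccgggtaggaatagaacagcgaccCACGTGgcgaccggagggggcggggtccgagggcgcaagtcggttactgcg
Pold3: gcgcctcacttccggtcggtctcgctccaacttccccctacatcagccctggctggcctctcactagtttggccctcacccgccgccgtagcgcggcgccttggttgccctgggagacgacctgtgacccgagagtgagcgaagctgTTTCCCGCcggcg
Rad23b: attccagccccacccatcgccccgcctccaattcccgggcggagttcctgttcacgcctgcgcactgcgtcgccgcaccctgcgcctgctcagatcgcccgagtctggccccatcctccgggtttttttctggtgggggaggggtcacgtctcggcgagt
Xpa: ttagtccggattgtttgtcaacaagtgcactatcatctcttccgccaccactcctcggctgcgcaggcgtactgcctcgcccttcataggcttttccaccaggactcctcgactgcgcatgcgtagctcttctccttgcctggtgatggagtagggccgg

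RefSeq promoters of 300 bases were found for 35 of the 41 members, and both strands were searched. The E-box CACGTG, the site of clock and MYC-family factors, was in 9 of the 35 (25.7%): Ercc6, Ercc8, Gtf2h1, Gtf2h5, Cdk7, Rpa1, Rfc1, Lig1 and Lig3. It was in 8.09% of 27025 genes with a promoter in the same table. Unlike the members, which all passed the filter on low counts, these 27025 include genes that did not. In the windows above it began at -96 in Ercc6, -100 in Cdk7, -68 in Rpa1 and -21 in Lig3, counted from the start. One of 3 E2F motifs of replication genes (TTTCGCGC, TTTGGCGC, TTTCCCGC) was in 5 of the 35 (14.3%), namely Rbx1, Pold1, Pold3, Rfc3 and Lig1, against 2.12% of all genes. None of the 35 held the D-box TTATGTAA, which 1.11% of all genes hold. These shares describe letters in a window and were not tested.

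Library totals ran from 14208961 to 27305294 counts, the first brain control being the deepest and the next library at 18174269. Marker genes of neurons and osteoblasts went with the labelled tissues. In untreated libraries the sum of 8 neuron genes was 8107 to 8590 CPM in brain and 38.9 to 45.7 in skull. CPM are counts scaled to a common library size. The sum of 7 osteoblast genes was 33.0 to 35.0 in brain and 3257 to 4766 in skull. Microglia genes were lowest in brain: the 5 summed to 122.5 to 140.5 there, 367 to 387 in meninges and 339.8 to 351.6 in skull. Meningeal fibroblast genes were in all meninges libraries, with a median gene at 172 CPM in untreated meninges, 47.0 in skull and 6.44 in brain. Their sum, which includes the collagen gene Col1a1 that bone also expresses, was higher in skull (53000 to 83830) than in meninges (21950 to 36580). The skull libraries also carried marrow, with 3902 to 8386 CPM over 8 neutrophil genes. The meninges held 284.9 to 559.5 of the neuron genes, 1853 to 2428 of the osteoblast genes and 1194 to 1526 of 5 pineal genes. Some members share annotated exon bases with a gene on the opposite strand, and whether strand was used in counting is not given in the sources used here. The largest shares were 42.7% of Ercc2, 25.1% of Lig3 (with Rffl), 23.8% of Ddb2 (with Acp2), 15.1% of Rfc2 (with Lat2), 12.7% of Rfc4 (with Eif4a2) and 10.7% of Rfc5 (with Wsb2).

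In untreated tissue 23 of the 41 members had their highest mean level in skull, 10 in brain and 8 in meninges. All 10 gap-filling genes and the ligation genes Lig1, Lig3 and Xrcc1 were among those highest in skull. The 10 highest in brain came from several roles: the recognition genes Rad23b, Cul4b and Rbx1, the transcription-coupled factors Ercc6 and Ercc8, the nuclease subunit Ercc4, and the TFIIH genes Gtf2h2, Gtf2h5, Cdk7 and Ccnh. Other genes of the same roles stood highest elsewhere, such as Xpc, Ddb2, Uvssa and Ercc2 in meninges. Per kilobase of exon, the median member stood at 4.51 CPM in brain, 5.09 in meninges and 7.42 in skull. Ddb1, the adaptor of the ubiquitin ligase, was the most abundant member in all 3 tissues, at 38.4 ± 0.90 CPM per kb in brain, 58.7 ± 1.4 in meninges and 62.1 ± 5.2 in skull (SD, n = 3). Rad23b, the partner that stabilises XPC, ranked 2 of 41 in brain and meninges (36.3 ± 0.21 and 23.7 ± 0.031) and 3 in skull (22.7 ± 0.29), below Pcna, the sliding clamp, at 28.6 ± 2.3. The lesion sensors stood lower. Xpc was at 3.26 ± 0.078, 7.03 ± 0.15 and 5.01 ± 0.67 in brain, meninges and skull, and Ddb2 at 3.16 ± 0.12, 4.62 ± 0.66 and 2.83 ± 0.50. The lowest members were Pole, the catalytic subunit of polymerase epsilon, in brain (0.147 ± 0.053) and meninges (0.333 ± 0.042), and Ercc8 in skull (0.965 ± 0.19).

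**Figure D1:**
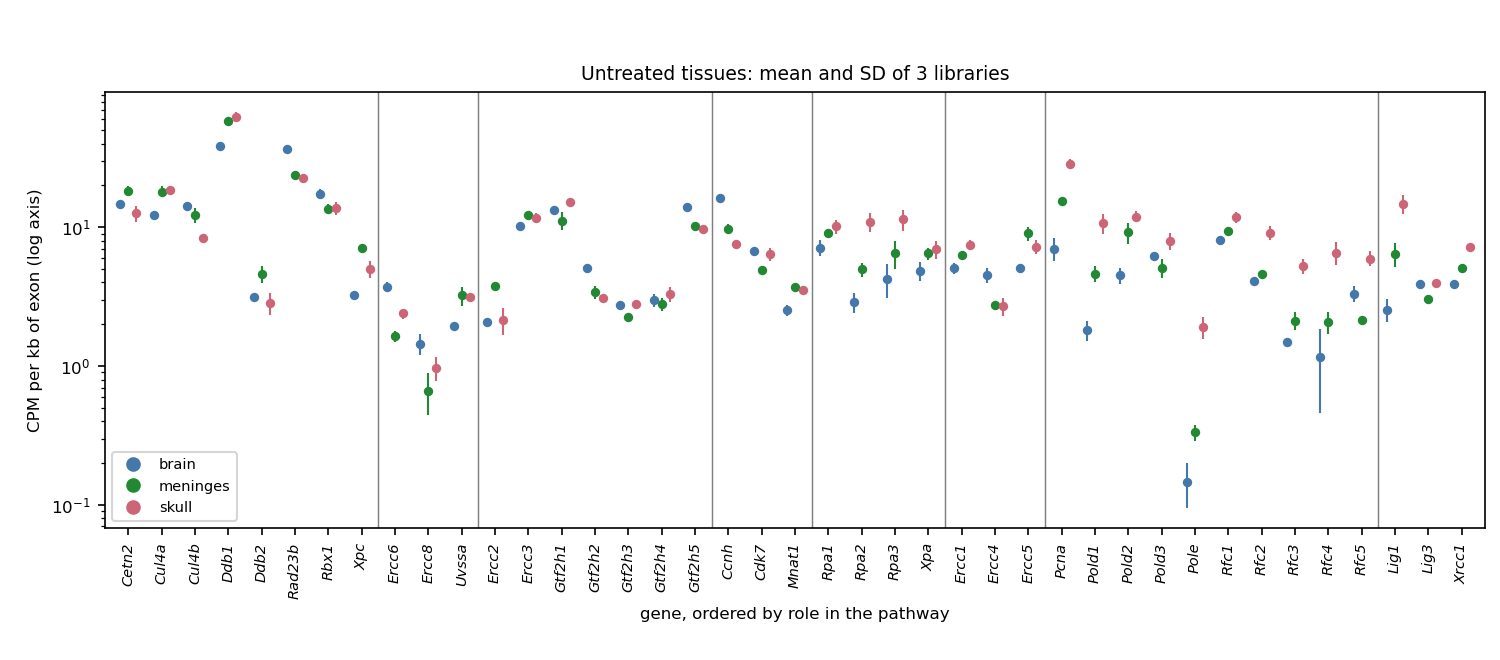
Level of each of the 41 members in untreated brain, meninges and skull, as CPM per kb of exon on a log axis, with genes grouped by role and vertical lines between roles. Points are means of 3 libraries and bars are SD. Pole, Rfc4, Pold1 and Lig1 are highest in skull and lowest in brain, and Ercc6, Ercc8 and Ercc4 are highest in brain.

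The test of untreated skull against untreated brain called 23 of the 41 members higher and 9 lower, beside 75.6% of all 21500 genes called in that comparison (edgeR quasi-likelihood test, Benjamini-Hochberg adjusted p under 0.05). The members' call rate (78.0%) is near that background. All 10 gap-filling genes were higher in skull, with a median log2 difference of 1.60 beside -0.02 over all genes. Pole stood at 1.68, 1.04 and 2.22 CPM in the 3 brain libraries and at 20.4, 25.7 and 18.0 in the 3 skull libraries, a log2 difference of 3.69 ± 0.28 (SE). Pold1, the polymerase delta catalytic subunit, was 2.55 ± 0.17 higher, the replicative ligase Lig1 2.52 ± 0.19, the clamp loader subunit Rfc4 2.45 ± 0.30 and Pcna 2.03 ± 0.13 (adjusted p from 6.28e-13 to 7.04e-08). The genes of dividing cells followed the same order in the same libraries, from 90.9 to 158.7 summed CPM over 22 genes in untreated brain, 210.9 to 313.6 in meninges and 1081 to 1717 in skull. Their part in the levels of the gap-filling genes was not tested. In bulk tissue, fewer cells of a type and less RNA per cell cannot be told apart.

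Lower in skull than in brain were Ccnh, the cyclin of the TFIIH kinase (-1.09 ± 0.09), the cullin Cul4b (-0.76 ± 0.12), Ercc4 (-0.75 ± 0.11), the TFIIH subunit Gtf2h2 (-0.72 ± 0.11) and Rad23b (-0.68 ± 0.06), with adjusted p from 1.12e-10 to 5.12e-06. Rad23b stood at 209.1, 206.9 and 209.0 CPM in brain, 135.9, 136.2 and 135.9 in meninges and 128.3, 131.6 and 130 in skull. Meninges and skull were close for this gene, and brain stood apart from both.

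Untreated meninges against brain gave 24 members higher and 14 lower, beside 70.5% of all genes called. Pold1 (1.34 ± 0.17), Lig1 (1.32 ± 0.19), Pole (1.16 ± 0.29), Pcna (1.13 ± 0.13) and Xpc (1.11 ± 0.12) were the 5 furthest up, with adjusted p of 0.00100 or less. Ercc6, the remodeler that acts at stalled RNA polymerase, was furthest down (-1.17 ± 0.10), at 43.1, 51.1 and 49.2 CPM in brain and 22.2, 22.5 and 18.9 in meninges. It was followed by Ercc8 (-1.13 ± 0.23), Ercc4 (-0.72 ± 0.11), Ccnh (-0.72 ± 0.09) and Rfc5 (-0.63 ± 0.14), with adjusted p of 0.000332 or less for these 5 lower genes. Untreated skull against meninges gave 19 higher and 7 lower, beside 48.2% of all genes. Here Pole (2.52 ± 0.26), Rfc4 (1.66 ± 0.28), Rfc5 (1.47 ± 0.14), Rfc3 (1.31 ± 0.18) and Pold1 (1.21 ± 0.16) led, and the TFIIH helicase gene Ercc2 (-0.81 ± 0.18), Ddb2 (-0.70 ± 0.17), Cetn2, the centrin that travels with XPC (-0.54 ± 0.12), Cul4b (-0.54 ± 0.12) and Xpc (-0.49 ± 0.12) were furthest down, with adjusted p of 0.00178 or less.

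At 0.5 h after UVB no member passed the test in any tissue. In brain, 0 of 41 were called by edgeR, DESeq2 or limma-voom. The background in edgeR was 0.0055% of 18172 genes. In meninges 0 were called by edgeR, beside 0.874% of 18542 genes called by edgeR. DESeq2 and limma-voom, whose calls over all genes are not listed here, each called 1 member. That gene was Ercc4 (chr16:13109684-13150617, plus strand), the catalytic subunit of the nuclease that cuts 5′ of the lesion. Its level was 18.5, 21.3 and 19.6 CPM in the meninges controls and 30.1, 26.9 and 26.4 at 0.5 h. The groups did not overlap, and the log2 fold change was 0.49 ± 0.10 (edgeR adjusted p = 0.0553, DESeq2 adjusted p = 0.0144). Of all genes in meninges at 0.5 h, 20.8% had groups that did not overlap.

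In skull at 0.5 h, 0 members were called by edgeR, DESeq2 or limma-voom, beside 4.90% of 17426 genes called by edgeR. The smallest p-values belonged to Uvssa, which protects the Cockayne syndrome complex at stalled polymerase, the TFIIH kinase Cdk7 and the TFIIH subunit Gtf2h2. Uvssa stood at 24.7, 23.6 and 27.1 CPM in the controls, then 33.4, 34.1 and 30.6 at 0.5 h (log2 fold change 0.38 ± 0.12, adjusted p = 0.0775). Cdk7 differed by 0.35 ± 0.11 and Gtf2h2 by 0.40 ± 0.13, with adjusted p of 0.0967 and 0.0969 in edgeR. Ddb2, whose product binds UV lesions directly, was at 8.26, 7.34 and 5.80 in the controls, then 10.8, 9.44 and 10.5 at 0.5 h, a difference of 0.52 ± 0.18 that did not pass (edgeR adjusted p = 0.110). All 3 treated libraries lay above the controls for these 4 genes. Of all genes in skull at 0.5 h, 27.6% had groups that did not overlap, and 12 of the 41 members did, which is near that background.

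**Figure D2:**
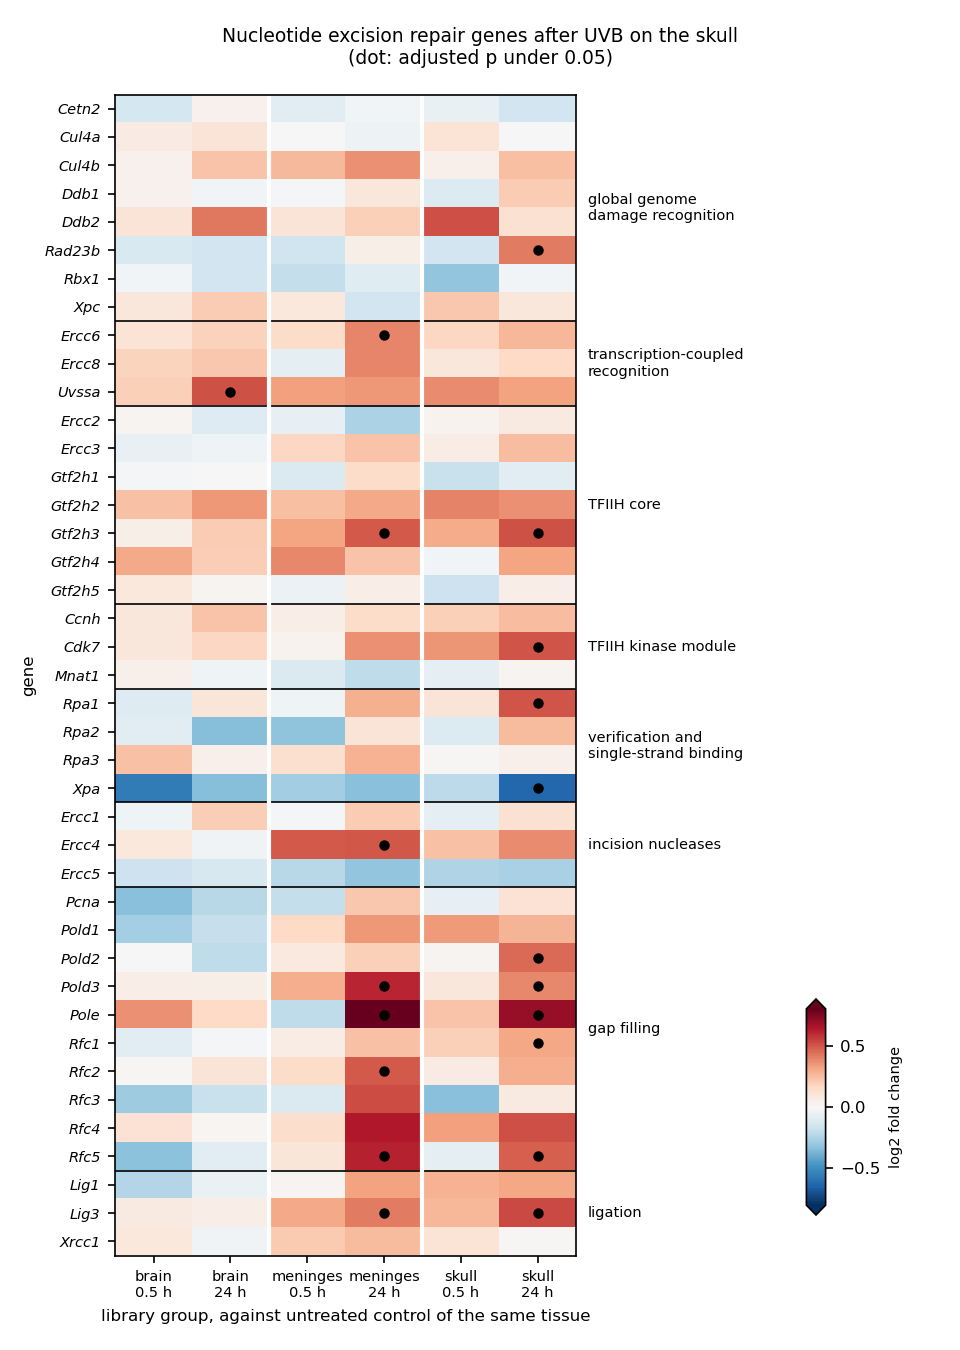
Log2 fold change of the 41 members against untreated control of the same tissue (6 columns), by role. Red is higher and blue lower, the colour scale ends at 0.8 in either direction, and a dot marks an edgeR adjusted p under 0.05. The 0.5 h columns hold no dot, the brain column at 24 h holds 1, the meninges column 8 and the skull column 11.

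Skull at 24 h gave the most member calls of any comparison with control: 10 rose and 1 fell. In the background, 20.9% of 17426 genes were called, and 26.8% of the members were, not far from the background. Of the 41, 35 had a positive log2 fold change, with a median of 0.25 beside -0.00 over all genes, of which 1842 rose and 1807 fell. Changes were small, from 1.24-fold to 1.62-fold among the members that rose. All 24 h libraries lay above the controls for 20 members and below them for 2, while 37.7% of all genes had groups that did not overlap. Without skull control 1 the count of 11 fell to 7. Calls over all genes in that fit are not listed here.

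Among the 8 global recognition genes, Rad23b (chr4:55350043-55392237, plus strand, GRCm38) was the 1 that passed. It stood at 118, 121 and 120.3 CPM in the skull controls, 107.0, 108 and 108 at 0.5 h, and 155, 151 and 174 at 24 h. The 24 h libraries lay above all others, for a log2 fold change of 0.42 ± 0.08 (edgeR adjusted p = 0.00282). Xpc, its partner, was at 24.0, 29.2 and 22.9 in the controls, then 25.9, 25.9 and 29.4 at 24 h, with overlapping groups (0.09 ± 0.13, edgeR adjusted p = 0.666). None of the 3 transcription-coupled genes passed in skull: Uvssa differed by 0.32 ± 0.12, Ercc6 by 0.27 ± 0.11 and Ercc8 by 0.16 ± 0.21.

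TFIIH gave 1 call in its core and 1 in its kinase module. Gtf2h3, which encodes the p34 core subunit, was at 16.5, 15.4 and 17.0 CPM in the controls, then 23.1, 23.1 and 23.2 at 24 h (0.51 ± 0.11, edgeR adjusted p = 0.00849). Cdk7 was at 23.9, 22.4 and 19.5 in the controls, then 29.4, 31.2 and 32.7 at 24 h (0.50 ± 0.11, edgeR adjusted p = 0.00928). Both were also higher in every 0.5 h library than in any control, but neither was called there. Of all genes in skull at 0.5 h, 27.6% had groups that did not overlap. Cdk7 also serves transcription by RNA polymerase II and the cell cycle kinases.

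Xpa and Rpa1, which act together on the opened DNA, moved in opposite directions in skull. Xpa (chr4:46155347-46196311, minus strand), the damage verification factor, was the 1 member that fell. Its levels were 13.4, 12.8 and 10.1 CPM in the controls, 10.4, 11.2 and 9.88 at 0.5 h, and 8.31, 6.98 and 8.23 at 24 h. No 24 h library reached the lowest control, and the log2 fold change was -0.63 ± 0.16 (edgeR adjusted p = 0.0160). The call was lost without skull control 1 or without 24 h library 2, where the adjusted p reached 0.0631. Xpa mRNA is known to cycle with the circadian clock in mouse liver. In the same libraries 8 of 18 clock genes rose and 6 fell at 24 h, and the part of the time of day in the Xpa result was not tested. Rpa1 (chr11:75298166-75348324, minus strand), the large subunit of RPA, stood at 58.4, 51.5 and 46.1 in the controls, then 74.3, 75.5 and 71.7 at 24 h (0.51 ± 0.11, edgeR adjusted p = 0.00627), without overlap. The other RPA subunits Rpa2 (0.25 ± 0.15) and Rpa3 (0.04 ± 0.17) did not pass.

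No incision nuclease passed in skull at 24 h. Ercc4 differed by 0.38 ± 0.13 (edgeR adjusted p = 0.0622), while Ercc5, which cuts 3′ of the lesion, differed in the other direction by -0.26 ± 0.10 (0.0903) with all 3 treated libraries below the controls. Ercc1, the partner of Ercc4, was at 0.12 ± 0.13.

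Gap filling held 5 of the 10 skull calls, and all 10 of its genes had a positive value (median 0.35). Pole (chr5:110286306-110337474, plus strand) rose most, from 18.7, 23.6 and 16.6 CPM to 30.1, 36.7 and 29.0 (0.70 ± 0.16, edgeR adjusted p = 0.0103). The clamp loader subunit Rfc5 went from 25.6, 28.7 and 22.5 to 37.8, 37.1 and 31.9 (0.48 ± 0.12, edgeR adjusted p = 0.0142), and its call was lost only without 24 h library 1. The polymerase delta subunits Pold2 (0.45 ± 0.13) and Pold3 (0.39 ± 0.11) and the largest clamp loader subunit Rfc1 (0.31 ± 0.10, edgeR adjusted p = 0.0492) also passed. These 3 were less stable: leaving out 1 library at a time kept the call in 5 of 9 fits for Pold2, 5 of 9 for Pold3 and 2 of 9 for Rfc1. Pcna did not pass, at 63.6, 68.0 and 58.2 in the controls, then 66.9, 70.9 and 67.8 at 24 h (0.11 ± 0.10, edgeR adjusted p = 0.443). Lig3 (chr11:82781108-82804274, plus strand), the ligase that works with the scaffold Xrcc1, rose from 26.9, 24.9 and 28.1 to 39.6, 36.0 and 39.8 (0.53 ± 0.10, edgeR adjusted p = 0.00290). Its overlapping neighbour Rffl differed by 0.38 ± 0.22 without passing. Xrcc1 itself was at 0.01 ± 0.09. Rad23b, Lig3, Rpa1, Gtf2h3, Cdk7 and Pole kept their skull calls in all 9 fits with a library left out and in all 10 other settings.

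**Figure D3:**
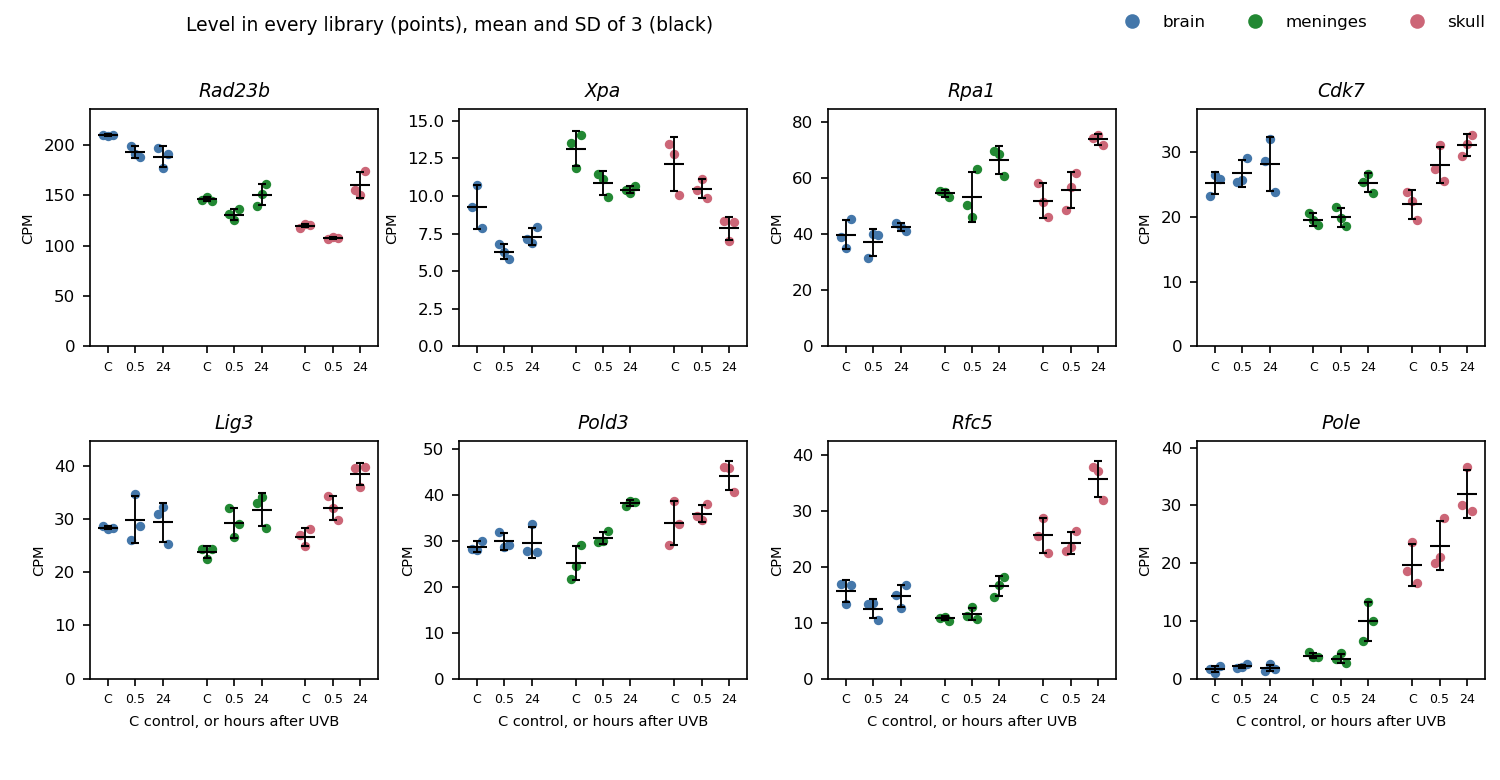
CPM of 8 members in all 27 libraries, from untreated controls (C) to 0.5 h and 24 h after UVB, with levels scaled within each tissue. Points are libraries and black bars are the mean and SD of 3. In skull the 24 h points of Rad23b, Rpa1, Lig3, Rfc5 and Pole lie above all controls and those of Xpa below them. Of all genes in that comparison, 37.7% had groups that did not overlap.

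In the meninges at 24 h, 8 of 41 members rose and none fell, beside 8.42% of all 18542 genes called in either direction. Of the 41 values, 33 were positive, with a median of 0.23 beside 0.02 over all genes. All 24 h libraries lay above the controls for 18 members and below them for 3, while 28% of all genes had groups that did not overlap. The calls lay in gap filling (4 of 10), with 1 each in incision, TFIIH core, transcription-coupled recognition and ligation. None of the 8 global recognition genes passed.

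Pold3 (chr7:100082111-100121565, minus strand) had the smallest p. It stood at 21.8, 24.4 and 29.1 CPM in the controls, 29.8, 29.97 and 32.2 at 0.5 h, and 37.6, 38.8 and 38.4 at 24 h (0.61 ± 0.11, edgeR adjusted p = 0.00933). The 24 h libraries were close together and above all others. Rfc2, a small clamp loader subunit, went from 29.99, 32.7 and 30.9 to 43.6, 47.2 and 40.6 (0.49 ± 0.09, edgeR adjusted p = 0.0112). Pold3 and Rfc2 kept their calls in all 9 fits with a library left out and in all 10 other settings. Rfc5 went from 10.9, 11.1 and 10.3 to 14.6, 16.7 and 18.1 (0.61 ± 0.14, edgeR adjusted p = 0.0229), kept in 4 of the 9 fits.

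Pole had the largest meningeal change, from 4.54, 3.68 and 3.72 to 6.46, 13.3 and 9.90 CPM (1.31 ± 0.29, edgeR adjusted p = 0.0192). Its 24 h libraries spread widely, and the call was lost without 24 h library 2 or 3 or without control 2 or 3, with adjusted p up to 0.0792. Ercc4 was higher at 24 h, at 26.9, 29.4 and 27.5 against 18.5, 21.3 and 19.6 in the controls (0.50 ± 0.10, edgeR adjusted p = 0.0145), much the level it had at 0.5 h. Without 24 h library 2 or control 1 its adjusted p rose to as much as 0.0598.

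Gtf2h3 (0.49 ± 0.12, edgeR adjusted p = 0.0289), Lig3 (0.42 ± 0.11, 0.0409) and Ercc6 (0.39 ± 0.10, 0.0407) completed the list. Gtf2h3 kept its call in 3 of 9 fits with a library left out, Lig3 in 1 and Ercc6 in 0, so these 3 rest on the full set of libraries. Rffl, which shares exon bases with Lig3, rose too (0.77 ± 0.16, edgeR adjusted p = 0.0156), so with strand use unknown the meningeal Lig3 value is uncertain. Lat2 beside Rfc2 (0.17 ± 0.17) and Wsb2 beside Rfc5 (0.00 ± 0.09) did not pass. The count of 8 fell to 3 without 24 h library 2 or without any 1 of the controls. It fell to 4 without 24 h library 3 and to 5 without 0.5 h library 1. Calls over all genes in those fits are not listed here.

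Of the 8 members that rose in meninges, 5 (62.5%) also rose in skull, where they made up 50% of 10: Gtf2h3, Lig3, Pold3, Pole and Rfc5. The same share over all genes was not computed, so the overlap cannot be set against a background. The controls of these comparisons are separate libraries, but the labels do not say whether the meninges and skull came from the same mice. Of the 9 members with an E-box, 4 rose in skull (Cdk7, Lig3, Rfc1, Rpa1) beside 5 of the 26 without one, and 2 rose in meninges (Ercc6, Lig3) beside 4 of 26. Of the 5 with an E2F motif, 1 (Pold3) rose in skull beside 8 of the 30 without one, and the same gene rose in meninges beside 5 of 30.

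Brain at 24 h gave 1 member call, Uvssa (chr5:33378549-33419754, plus strand), beside 2.62% of all genes. It was at 16.9, 16.7 and 17.3 CPM in the controls, 18.9, 19.9 and 19.4 at 0.5 h, and 28.5, 19.9 and 24.3 at 24 h. The treated libraries lay above the controls but spread widely (0.51 ± 0.13, edgeR adjusted p = 0.0428). The call held in 1 of 9 fits with a library left out, the one without 24 h library 2. The next smallest p-values were those of Gtf2h2 (0.34 ± 0.12, edgeR adjusted p = 0.122) and Ccnh (0.23 ± 0.08, 0.131), both with treated libraries above all controls. Groups did not overlap for 6 of the 41 members there, beside 22.2% of all genes. Across the 41 the median was 0.02 beside -0.00 over all genes.

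Among the core genes, Xpc, Ddb2, Ercc8, Ercc5 and Pcna passed in no comparison with control. For Xpc the 24 h values were 0.21 ± 0.12 in brain, -0.16 ± 0.11 in meninges and 0.09 ± 0.13 in skull. For Ddb2 they were 0.42 ± 0.18, 0.19 ± 0.15 and 0.12 ± 0.18, with brain levels of 9.0, 8.73 and 8.34 CPM in the controls, then 12.6, 9.998 and 12.4 at 24 h. For Pcna they were -0.22 ± 0.16, 0.22 ± 0.10 and 0.11 ± 0.10, and for Ercc5 -0.13 ± 0.10, -0.32 ± 0.11 and -0.26 ± 0.10. Ercc8 was the least precise of them, at 0.21 ± 0.17, 0.39 ± 0.27 and 0.16 ± 0.21. Xpa had a negative value in all 6 comparisons with control, from -0.21 ± 0.16 in skull at 0.5 h to -0.63 ± 0.16 in skull at 24 h. In brain at 0.5 h it was 9.26, 10.7 and 7.84 in the controls and 6.81, 6.27 and 5.79 after UVB (-0.56 ± 0.19, edgeR adjusted p = 0.819), and in meninges at 24 h -0.33 ± 0.14 (0.166). The comparisons within a tissue share their controls.

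Between 0.5 h and 24 h, 5 of the 41 members rose in skull and none fell. That is a smaller share than the 16.1% of all genes called in either direction. The 5 were Rad23b (0.57 ± 0.08, edgeR adjusted p = 0.000673), Rfc5 (0.56 ± 0.12), Rpa1 (0.40 ± 0.11), Pold2 (0.43 ± 0.13) and Ddb1 (0.31 ± 0.09). For Rad23b the interval spans values below control at 0.5 h to values above it at 24 h. Ddb1, the most abundant member, was at 337, 358 and 327 CPM at 0.5 h and 425, 421 and 419.7 at 24 h, against 377, 331 and 392 in the controls. Rad23b and Rfc5 kept this call in all 9 fits with a library left out. Rpa1 kept it in 4, Pold2 in 5 and Ddb1 in 3. The count of 5 fell to 2 without 0.5 h library 1 or 2 or 24 h library 1 or 3, and to 3 without 24 h library 2. Calls over all genes in those fits are not listed here. In meninges Pole alone passed (1.52 ± 0.29, edgeR adjusted p = 0.0233) beside 2.34% of all genes, followed by Pcna (0.41 ± 0.10, 0.0614) and Rfc5 (0.52 ± 0.14, 0.0870). The Pole call was lost without any 1 of the 0.5 h libraries or without 24 h library 2 or 3. In brain 0 members passed in edgeR, DESeq2 or limma-voom, beside 0.22% of all genes in edgeR.

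The 24 h response of Rad23b differed between tissues. Its log2 fold change was 0.56 ± 0.09 larger in skull than in brain (edgeR adjusted p = 0.000545), the only member called in that contrast beside 6.71% of 21500 genes, and 0.39 ± 0.09 larger in skull than in meninges (adjusted p = 0.0487), again the only member, beside 0.633% of genes. In brain Rad23b stood at 209.9, 208.6 and 210.1 CPM in the controls, then 197, 177 and 191 at 24 h, and in meninges at 145, 148 and 144 and then 139, 152 and 161. The brain values were below control and the meningeal groups overlapped, neither passing. The skull-brain difference was called in all 12 fits with a library left out. The skull-meninges difference was called in 2 of 12, those without meninges 24 h library 3 or skull 24 h library 2, so it rests on the full set. No member was called for meninges minus brain at 24 h by edgeR or limma-voom, beside 1.32% of genes in edgeR. DESeq2, whose calls over all genes are not listed here, called 3 members. Without meninges control 3 edgeR called 1. The smallest p there was that of Rfc5 (0.67 ± 0.20, edgeR adjusted p = 0.0894). DESeq2 called it (adjusted p = 0.0351).

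At 0.5 h no member differed between tissues by edgeR, DESeq2 or limma-voom. The background in edgeR was 0.0093% for meninges minus brain, 0.0093% for skull minus meninges and 0.209% for skull minus brain. The smallest p-values belonged to Ercc4 (0.39 ± 0.16), Cdk7 (0.35 ± 0.16) and Pold1 (0.62 ± 0.24), with edgeR adjusted p of 0.691, 0.809 and 0.328.

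A further 27 genes of the pathway, among them the COP9 signalosome that regulates the DDB1 ligases, other polymerase subunits and chromatin factors, were tested in the same fits. In skull at 24 h 5 rose and 1 fell (22.2%, beside 20.9% of all genes), with a median of 0.08. The 4 with the smallest p were Cops6 (0.39 ± 0.09, edgeR adjusted p = 0.00856), the nucleosome-binding Hmgn1 (0.39 ± 0.09, 0.00906), the translesion polymerase Polk, which also fills repair gaps (0.54 ± 0.14, 0.0162), and Cops7a (0.44 ± 0.12, 0.02). In meninges at 24 h 3 rose: Cops7b (0.57 ± 0.14, edgeR adjusted p = 0.0280), Polk (0.36 ± 0.10, 0.0420) and Pole2 (0.99 ± 0.26, 0.0435), with a median of 0.08. These are 11.1% of the list, beside 8.42% of all genes. In skull at 0.5 h Cops8 fell (-0.47 ± 0.11, edgeR adjusted p = 0.0365). None passed in brain at 24 h by edgeR. Between 0.5 h and 24 h in skull 5 rose (18.5%, beside 16.1% of all genes), led by Hmgn1 (0.59 ± 0.09) and Cops6 (0.46 ± 0.09). The 24 h response was larger in skull than in brain for 3 of the 27 (11.1%, beside 6.71% of all genes), namely Hmgn1 (0.69 ± 0.12, edgeR adjusted p = 0.00123), Cops7a (0.54 ± 0.13, 0.0101) and Cops6 (0.53 ± 0.13, 0.0145). Hmgn1 stood at 105, 116 and 120.3 CPM in the skull controls and 153, 134 and 161 at 24 h, and at 50.2, 43.7 and 46.6 and then 33.2, 41.8 and 38.6 in brain. The skull libraries lay above their controls and the brain libraries below theirs.

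The genes of dividing cells moved with the gap-filling genes in the meninges. At 24 h 7 of 22 rose there (31.8%, beside 8.42% of all genes, median 0.69), and their summed level was 369.6 to 547.4 CPM against 210.9 to 313.6 in the controls. In skull 5 of 22 rose (22.7%, near the 20.9% of all genes, median 0.34), with sums of 1531 to 2037 against 1081 to 1717, and the groups overlapped. In brain 2 of 19 tested genes fell (10.5%, beside 2.62% of all genes, median -0.64), and the sums were 90.9 to 158.7 in the controls and 74.1 to 88.6 at 24 h. In the skull controls those sums, which are plain CPM without TMM scaling, were lowest in control 3 and highest in control 2. The gap-filling genes Pole, Pold1, Pold2, Pcna, Rfc1, Rfc4 and Rfc5 had the same order, and Pold3, Rfc2 and Rfc3 did not. Skull marrow markers differed as well at 24 h: the 8 erythroid genes summed to 2990 to 4562 CPM against 4722 to 5288 in the controls, and the 7 B cell precursor genes to 111.1 to 188.5 against 208.0 to 277.7. In the meninges 5 skeletal muscle genes summed to 15.5 to 3621 in the controls and 5.69 to 58.9 at 24 h, and 4 choroid plexus genes to 339 to 6388 and 447 to 15010. The part of these lists in the member results was not tested.

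**Figure D4:**
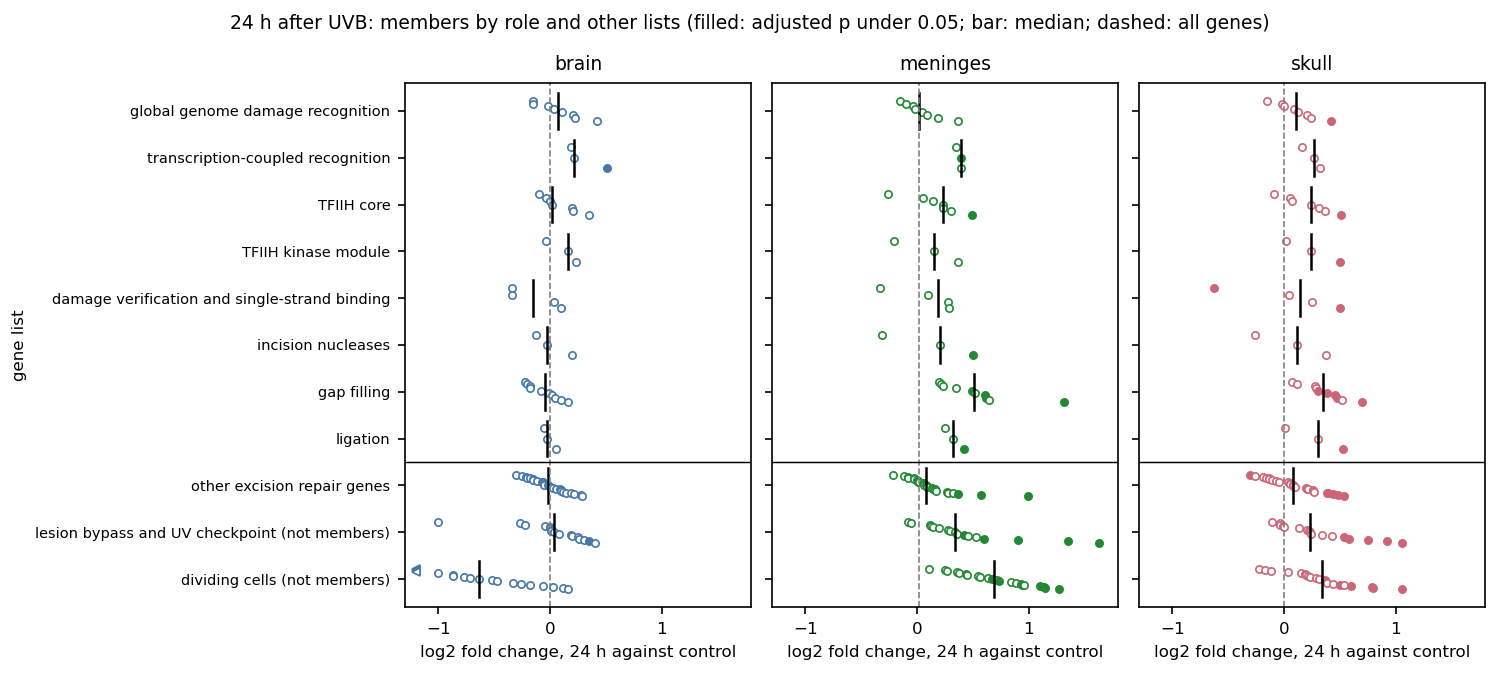
Log2 fold change at 24 h against control for each member by role (upper 8 rows) and for 3 lists of other genes (lower rows), in brain, meninges and skull. Filled points have an edgeR adjusted p under 0.05, black bars are list medians, the dashed line is the median of all tested genes, and triangles at the left edge stand for values below the axis. Gap filling has its median at 0.51 in meninges and 0.35 in skull, beside 0.69 and 0.34 for the genes of dividing cells.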

How the data were processed

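Poly(A) RNA from 27 mouse libraries was extracted with TRIzol after the meninges were scraped from a rinsed skullcap, per the labels' protocols. Gene counts were deposited by the authors as 1 table of raw counts. HISAT2 2.1.0 and mm10 are named in the submitters' processing notes, and no counting tool, annotation or strand setting is given in the sources used here. The members and the other gene lists were chosen with earlier results of these data known.

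Counts were tested with edgeR 4.0.16 in R 4.3.3 (quasi-likelihood test, TMM scaling, robust option). Genes needed 10 counts in enough libraries and 15 in all (filterByExpr), and p-values were adjusted by Benjamini-Hochberg over all genes tested, with a threshold of 0.05. Effects within a tissue were fitted on its 9 libraries. Untreated tissues and differences of effects between tissues were fitted on all 27. Log2 fold changes are given with SE. Levels of single genes are CPM with TMM scaling, set within a tissue for the response to UVB and over all 27 libraries for untreated levels. Sums and median genes of the marker and other gene lists are plain CPM, without TMM scaling. Exon length, coordinates and shared exons came from GENCODE M21 on GRCm38, and promoters from RefSeq on GRCm38.p6. DESeq2 1.42.0 and limma-voom (limma 3.58.1) were among the alternatives, together with no filter, RLE scaling, no robust option, haemoglobin and mitochondrial genes left out of the scaling, the 2 groups alone, all 27 libraries, a GC and length correction chosen after seeing the data, a replicate block, and leaving out each library. The scripts were tested on simulated data.

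Members named are, within a tissue, every gene called (the 3 smallest p where fewer than 3 were called), between untreated tissues the 5 highest and 5 lowest log2 differences called, and for differences of effects those called or the smallest p. Xpa, Xpc, Ddb2, Ercc6, Ercc8, Ercc5 and Pcna are included in every comparison with control. Of the other pathway genes, at most 4 called are named in a comparison. Hmgn1 levels and genes beside these were chosen after their values were seen. No libraries were identical. Same-numbered libraries of a tissue did not deviate together (7 of 27 pairs with a correlation over 0.1, 17 of 54 for other pairs). Across tissues, 4 of 27 same-numbered pairs and 4 of 54 other pairs had a correlation over 0.1. The labels do not say whether the tissues came from the same mice. No block entered the tests.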

Additional observations from a re-analysis of the deposited data

Results flagged for a closer look

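The 24 h response of Rad23b differed between tissues in a direct test of the difference of log2 fold changes over all 27 libraries. It was 0.56 higher in skull than in brain and 0.39 higher in skull than in meninges. The difference from brain was called in all 12 fits with a library left out. The difference from meninges was called in 2 of 12 and in 2 of 8 other settings, being lost with limma-voom, no filter, no robust option, the replicate block, RLE scaling and scaling without haemoglobin and mitochondrial genes. All 3 treated skull libraries lay above their controls, all 3 treated brain libraries below theirs, and the meningeal groups overlapped.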

How the results depend on the processing

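Member calls in skull at 24 h stayed within 1.5 times of 11 under every setting other than a left-out library, as did the untreated counts of 38 (meninges against brain), 26 and 32. In meninges at 24 h the 8 calls became 5 with a replicate block and 5 with the 2 groups alone. In brain at 24 h the 1 call became 0 with the GC and length correction, limma-voom, no robust option, the replicate block or the 2 groups alone. At 0.5 h the count of 0 became 1 in meninges with all 27 libraries, DESeq2 or limma-voom, and 2 in skull with all 27 libraries. From 0.5 h to 24 h the meninges gave 2 with all 27 libraries, 4 with DESeq2, 3 with limma-voom and 2 with no filter, against 1. Skull gave 10 with limma-voom and 2 with the replicate block, against 5. For differences at 24 h, meninges minus brain gave 3 with DESeq2 against 0, and skull minus brain 4 with DESeq2 and 2 with the GC and length correction against 1. Skull minus meninges gave 0 with limma-voom, no filter, no robust option, the replicate block, RLE scaling or scaling without haemoglobin and mitochondrial genes. The block changed no other count by over 1.5 times. The cause was not tested. Calls over all genes under these settings are not listed here. Whether the changes in count are particular to the members is therefore not shown.

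Leaving out 1 library gave 3 to 6 calls in meninges and 7 to 14 in skull at 24 h, and 0 to 1 in brain. It gave 2 to 6 in skull and 0 to 1 in meninges from 0.5 h to 24 h, and 0 to 1 for meninges minus brain and for skull minus meninges at 24 h. These counts likewise have no share over all genes beside them. Values that changed sign had passed no test. At 0.5 h the left-out fits ran from -0.10 to 0.21 for Ddb2 in brain, from -0.28 to 0.18 for Ercc8 and -0.039 to 0.17 for Xpc in meninges, and from -0.060 to 0.25 for Ercc8 and -0.16 to 0.0033 for Pcna in skull. At 24 h they ran from -0.0054 to 0.24 for Ddb2 in skull. There were 3 libraries a group, and member counts were as low as 16. Small changes in the scarcest members may have gone undetected, which was not tested. Pole and Rfc4 in untreated brain, for example, had means of 1.6 and 1.8 CPM.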

Other observations

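Of 17 genes of lesion bypass and the UV checkpoint, 5 rose in skull at 24 h (29.4%, beside 20.9% of all genes called, median 0.23). In meninges 5 rose (29.4%, beside 8.42%, median 0.34). Polh, the polymerase that copies past UV dimers, stood at 7.61, 9.67 and 9.46 CPM in the meninges controls and 19.7, 22.9 and 25.5 at 24 h (1.35 ± 0.17, edgeR adjusted p = 0.00114). In skull it stood at 16.8, 21.4 and 16.2 and then 37.3, 41.1 and 35.4 (1.06 ± 0.13, edgeR adjusted p = 0.000222). The treated libraries lay above all the controls in both tissues. In brain 1 of the 17 rose (5.88%, beside 2.62% of all genes), Rev3l, the catalytic subunit of a bypass polymerase (0.35 ± 0.08, edgeR adjusted p = 0.0312), and Polh did not pass (0.20 ± 0.20, edgeR adjusted p = 0.656). Clspn, the claspin checkpoint adaptor, rose in meninges (1.62 ± 0.30) and skull (0.75 ± 0.13), and Rad18, the ligase that recruits bypass polymerases, in skull (0.92 ± 0.15).

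Of the base excision repair genes, which mend small base lesions, 2 rose and 2 fell among 13 tested in skull at 24 h (30.8%, beside 20.9% of all genes). Smug1 (0.64 ± 0.14) and Ogg1 (0.57 ± 0.19) rose, and the glycosylase Neil1 (-0.55 ± 0.14) and the polymerase Polb (-0.36 ± 0.12) fell. None passed in meninges or brain by edgeR.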
